A study of Mus musculus with 40 samples.

Results

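The 34 genes described here encode proteins that take fatty acids into liver cells, activate them and oxidize them in mitochondria and peroxisomes, together with 1 ketone body enzyme and 2 regulators of fuel choice. They were chosen by gene symbol, with no measured value in the rule, but with earlier results of these data known. All 34 were found among the 24499 genes counted in each library, and all 34 were among the 14355 genes that were tested.

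Fatty acids that enter a hepatocyte are bound by a small cytosolic carrier and joined to coenzyme A. The carnitine shuttle carries the acyl groups into the mitochondrion, where a repeating spiral of oxidation, hydration, oxidation and cleavage shortens them and passes electrons to the respiratory chain. Very long and branched chains are shortened in peroxisomes, and in fasting the liver turns much of the acetyl-CoA into ketone bodies for other tissues. PPAR-alpha, the nuclear receptor encoded by Ppara, is bound by fatty acids and switches on many of these genes.

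The study modelled alcoholic liver injury on top of chronic liver disease, and measured polyadenylated RNA of whole liver from adult male C57BL/6 mice by sequencing. DDC, a chemical mixed into the diet at 0.05% w/w, was used to produce chronic fibrosis before a second regimen that lasted up to 28 days. Ethanol (EtOH) was given through a stomach tube at up to 27 g per kg per day. The labels call the control diet BD and the second regimen BD, HFD or HFD/EtOH, and do not spell out BD or HFD.

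Of the 40 libraries, 4 came from DDC 0D livers (DDC, with no second regimen) and 4 from Control 0D livers (BD, with no second regimen). After the second regimen, 6 came from DDC+EtOH livers (DDC, then HFD/EtOH), 6 from DDC+HFD livers (DDC, then HFD) and 5 from DDC+Cont livers (DDC, then BD). A further 4 came from EtOH livers (BD, then HFD/EtOH), 6 from HFD livers (BD, then HFD) and 5 from Control 28D livers (BD, then BD). By these labels EtOH livers differ from HFD livers by ethanol, and from Control 28D livers by HFD and ethanol together. Whether mice without ethanol also had a stomach tube is not stated here, so a part of the tube cannot be told apart from ethanol. Whether any library pooled animals is not stated, so the p-values measure the spread between these libraries.

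Between 7197939 and 26398061 reads were counted on genes in a library, with a median of 13653548. No member had fewer than 85 reads in any library, and that lowest count was Pdk4 in a DDC+HFD liver. Levels are given as CPM, a gene's reads scaled to a common library size, with each library's total adjusted by TMM, a factor that assumes most genes are unchanged. That factor was 1.22 to 1.23 in the DDC 0D libraries, against 0.942 to 0.989 in the Control 0D libraries, and 0.897 to 1.11 in the later groups. A list of 12 pancreatic acinar markers summed to more than 1000 CPM in 7 libraries, all of them from HFD, DDC+Cont, DDC+HFD or DDC+EtOH livers. A list of 20 hepatocyte markers was measured in full and summed to at least 98798 CPM in every library.

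In the Control 0D livers the members spanned a wide range of levels per kilobase of merged exon. Fabp1, which encodes the cytosolic fatty acid carrier of the liver, stood at 5666 ± 386 CPM per kb (SD, n = 4). Acaa2, the thiolase that closes the mitochondrial spiral, followed at 680.2 ± 29.2 CPM per kb, and Acaa1b, a peroxisomal thiolase, at 657 ± 9.88 CPM per kb. Those 2 neighbours did not differ beyond their spread. Slc27a2, an acyl-CoA synthetase that takes up fatty acids, came next at 335 ± 32.6 CPM per kb. Pdk4, the kinase that turns off pyruvate oxidation, was the lowest at 6.68 ± 2.48 CPM per kb, within its spread of Pex11a, a protein of peroxisome division, at 7.07 ± 0.479 CPM per kb.

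Nearly the whole pathway was lower after DDC feeding. In DDC 0D livers 30 of the 34 members were lower than in Control 0D livers and none was higher, by edgeR's quasi-likelihood test at an adjusted p under 0.05. The same test called 24.5% of all tested genes lower and 27.5% higher. The median log2 fold change was -0.89 over the members and 0.01 over all tested genes. The 34 members together summed to 6028 ± 633 CPM in DDC 0D livers and 15560 ± 698 CPM in Control 0D livers (SD, n = 4 each). Without TMM they made up 0.736% of gene reads in DDC 0D livers and 1.485% in Control 0D livers. With so many genes called, the assumption of TMM that most genes are unchanged may not hold. The size of each fall therefore depends on the scaling. For 30 members every DDC 0D library lay below every Control 0D library, as it did for 23.8% of all tested genes.

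**Figure D1:**
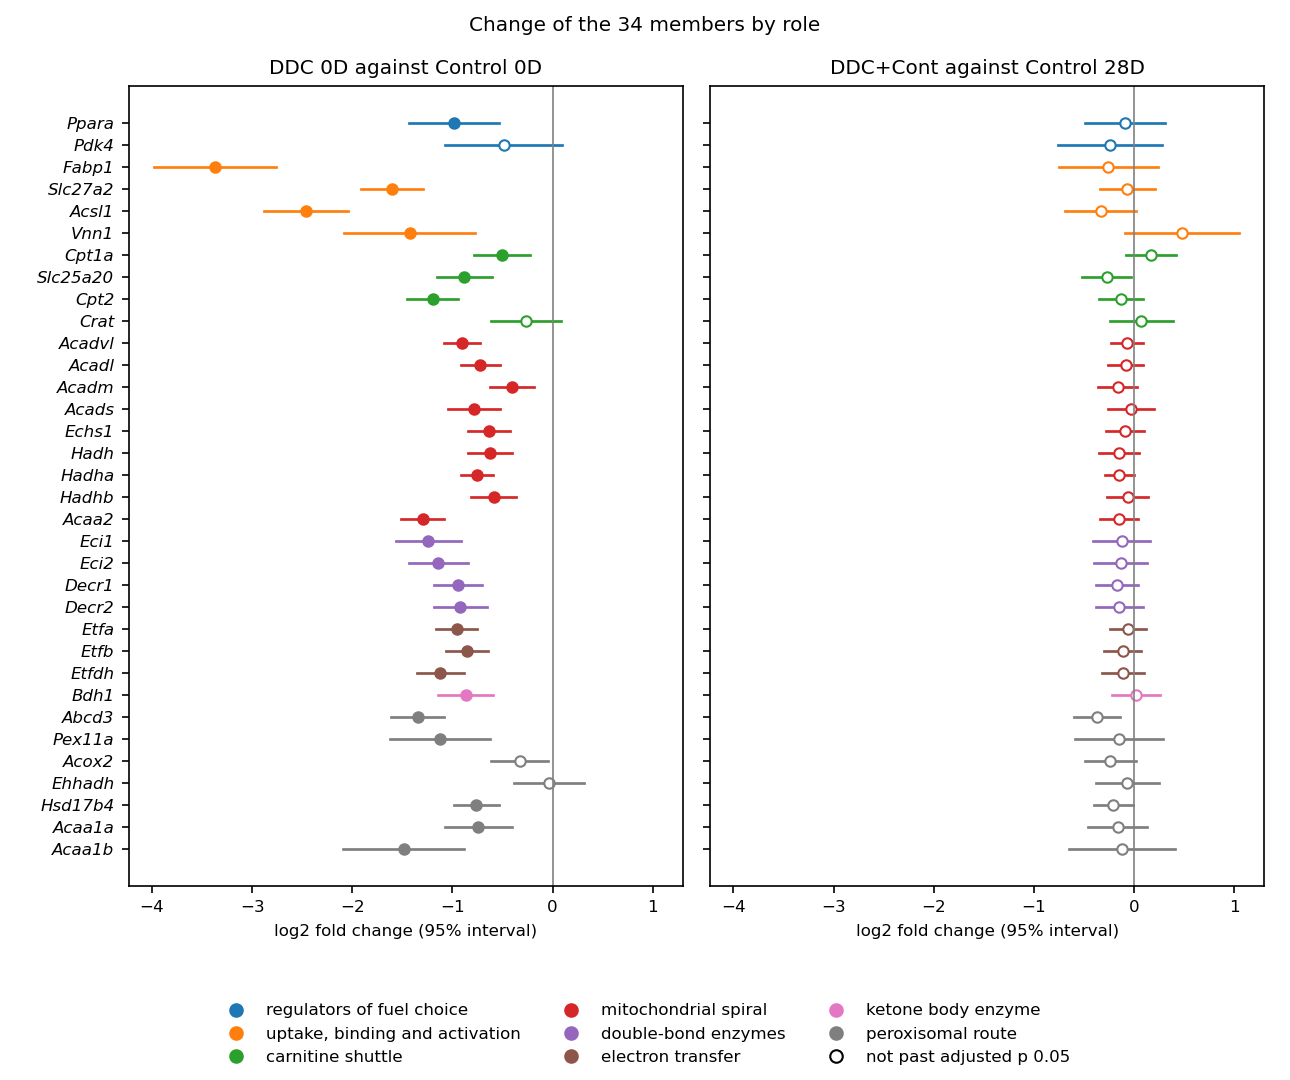
Log2 fold change (x axis) of each of the 34 members, grouped by role (y axis), in DDC 0D against Control 0D livers on the left and in DDC+Cont against Control 28D livers on the right; bars are 95% intervals and filled points have an adjusted p under 0.05. On the left 30 points are filled and lie below 0, and on the right none is filled.

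By role, RNA of the 4 members grouped under uptake, binding and activation fell furthest, with all 4 lower and a median log2 fold change of -2.03. Fabp1 had 277, 339, 463 and 132 CPM in the DDC 0D livers, against 2861, 3380, 3123 and 3169 CPM in the Control 0D livers. The groups were far apart, and the DDC 0D mean was 9.66% of the control mean in the fit (log2 fold change -3.37 ± 0.31 SE, adjusted p = 3.02e-11). Acsl1, the long-chain acyl-CoA synthetase of the liver, had 323, 272, 404 and 304 CPM in DDC 0D livers, against 1620, 1708, 1961 and 1871 CPM in Control 0D livers. Here too no DDC 0D library came near a control library (-2.46 ± 0.21, adjusted p = 5.88e-12). Slc27a2 had 408, 365, 462 and 419 CPM in DDC 0D livers, against 1094, 1370, 1239 and 1330 CPM in Control 0D livers. Again the groups did not overlap (-1.61 ± 0.16, adjusted p = 1.13e-10). Vnn1, a pantetheinase that recycles a precursor of coenzyme A, had 10.7, 19.5, 16.7 and 8.99 CPM in DDC 0D livers, against 42.1, 40.7, 34.0 and 34.1 CPM in Control 0D livers, and also fell without overlap (-1.43 ± 0.33, adjusted p = 5.30e-04).

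The promoter windows of members whose fall is described here are shown because PPAR-alpha recognizes a direct repeat of AGGTCA with 1 base between the copies. The letters AGGTCA, then any base, then AGGTCA were searched on both strands in the 250 bases before each start in RefSeq (build GRCm38.p6), in 33 windows of 29 members. With at most 1 mismatch, 1 member window (3.03%) held a match, against 0.484% of 32851 windows of all genes, and with at most 2 mismatches 3 member windows (9.09%) did, against 3.24% of all windows. The 3 member windows are those of Fabp1 (chr6:71199629-71199878, plus strand, 1 mismatch, match on the opposite strand 67 to 55 bases before the start), Etfa (chr9:55512244-55512493, minus strand, 2 mismatches, match on the opposite strand 77 to 65 bases before the start) and Echs1 (chr7:140116422-140116671, minus strand, 2 mismatches, match on the gene's own strand 83 to 71 bases before the start). Capitals mark the whole matched stretch, with its free base and its mismatches included. Each window is written 5′ to 3′ on the gene's strand, and a match is a description of letters and not a binding site.
Fabp1: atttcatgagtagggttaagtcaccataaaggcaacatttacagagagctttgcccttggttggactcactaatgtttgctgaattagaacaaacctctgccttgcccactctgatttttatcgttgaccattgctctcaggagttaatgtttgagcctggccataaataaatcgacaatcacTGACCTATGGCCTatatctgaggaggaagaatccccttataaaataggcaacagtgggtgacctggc
Etfa: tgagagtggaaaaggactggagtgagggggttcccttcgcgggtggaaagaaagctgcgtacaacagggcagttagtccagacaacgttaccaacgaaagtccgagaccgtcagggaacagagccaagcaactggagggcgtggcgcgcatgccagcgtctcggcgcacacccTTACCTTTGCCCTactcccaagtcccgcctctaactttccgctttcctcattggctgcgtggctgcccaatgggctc
Echs1: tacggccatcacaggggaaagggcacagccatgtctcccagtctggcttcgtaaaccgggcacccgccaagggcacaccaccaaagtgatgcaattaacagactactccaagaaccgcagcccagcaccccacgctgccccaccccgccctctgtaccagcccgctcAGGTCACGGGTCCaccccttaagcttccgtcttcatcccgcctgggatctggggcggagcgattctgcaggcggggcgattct

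Hadha and Hadhb encode the alpha and beta subunits of the mitochondrial trifunctional protein. In RefSeq they start 273 bases apart on opposite strands, so that the window before Hadhb (chr5:30155003-30155252, plus strand) lies between both RefSeq starts. In GENCODE vM21 Hadha starts at base 30155162, inside this window. The window is shown for the RefSeq arrangement, and it held no match to the searched letters.
Hadhb: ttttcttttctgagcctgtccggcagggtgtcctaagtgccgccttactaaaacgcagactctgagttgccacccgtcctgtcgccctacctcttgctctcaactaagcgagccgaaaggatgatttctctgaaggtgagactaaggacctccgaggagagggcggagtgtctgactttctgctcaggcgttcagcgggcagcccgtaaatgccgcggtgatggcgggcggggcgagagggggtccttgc

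The mitochondrial spiral fell as a whole, with 9 of 9 members lower and a median log2 fold change of -0.72. Acaa2 had 435.9, 351, 477 and 416 CPM in DDC 0D livers, against 968, 1058, 1034 and 1065 CPM in Control 0D livers. Its groups were widely separated, and it had the smallest adjusted p of all members (-1.30 ± 0.11, adjusted p = 2.84e-12). Acadm, the medium-chain acyl-CoA dehydrogenase, had 295, 234, 261 and 263 CPM in DDC 0D livers, against 339, 354, 346 and 358 CPM in Control 0D livers. It moved the least of the 9 but its groups did not overlap (-0.41 ± 0.11, adjusted p = 0.00232). Hadha averaged 241 ± 17.9 CPM in DDC 0D livers and 405 ± 13.1 CPM in Control 0D livers (-0.75), and its partner Hadhb averaged 136 ± 12.7 CPM in DDC 0D livers and 204 ± 16.8 CPM in Control 0D livers (-0.59). The other dehydrogenases Acadvl, Acadl and Acads, which act on very long, long and short chains, fell with log2 fold changes of -0.91, -0.72 and -0.78. Echs1, which hydrates the double bond, and Hadh, which oxidizes the product, fell with log2 fold changes of -0.63 and -0.62.

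RNA of the enzymes that prepare unsaturated fatty acids for the spiral also fell. All 4 of Eci1, Eci2, Decr1 and Decr2 were lower, at log2 fold changes from -1.24 to -0.92. RNA of the electron carriers fell too, with Etfa at -0.96, Etfb at -0.86 and Etfdh, which hands the electrons to ubiquinone, at -1.12. In the carnitine shuttle 3 of 4 members fell. Cpt1a, the controlled entry step, had 219, 229, 257 and 242 CPM in DDC 0D livers, against 284, 367, 359.8 and 335 CPM in Control 0D livers. Its groups were apart but close (-0.51 ± 0.14, adjusted p = 0.00283). Cpt2 and Slc25a20, the inner-membrane transferase and the carnitine carrier, fell further, at -1.20 and -0.88. Crat, which makes and breaks short acylcarnitines, averaged 44.4 ± 6.67 CPM in DDC 0D livers and 53.3 ± 3.29 CPM in Control 0D livers and was not called (-0.27, 95% interval -0.62 to 0.08, adjusted p = 0.217).

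Of the 7 members of the peroxisomal route, 5 fell. Abcd3, a transporter of acyl chains into the peroxisome, averaged 348 ± 40.4 CPM in DDC 0D livers and 883 ± 46.1 CPM in Control 0D livers (-1.34 ± 0.13, adjusted p = 1.52e-10). Acaa1b had 597, 379, 595 and 271 CPM in DDC 0D livers, against 1265, 1294, 1287 and 1312 CPM in Control 0D livers. The DDC 0D libraries varied widely but all lay below the controls (-1.49 ± 0.31, adjusted p = 1.18e-04). Acaa1a, a close copy of Acaa1b, fell at -0.74. Reads that match both copies could be left out or mixed, so the values of both are uncertain. Pex11a fell at -1.12 and Hsd17b4, the multifunctional enzyme for very long and branched chains, at -0.76.

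Ehhadh, the other peroxisomal multifunctional enzyme, had 389, 284, 328 and 343 CPM in DDC 0D livers, against 346, 342, 340.3 and 351 CPM in Control 0D livers. Its groups overlapped, and its interval excluded a change of the size seen in Acaa1b (-0.04, 95% interval -0.39 to 0.31, adjusted p = 0.878). Acox2, the branched-chain and bile acid side-chain oxidase, averaged 246 ± 48.6 CPM in DDC 0D livers and 308 ± 9.36 CPM in Control 0D livers and missed the threshold (-0.33, 95% interval -0.61 to -0.04, adjusted p = 0.0570).

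Bdh1, which interconverts the ketone bodies acetoacetate and beta-hydroxybutyrate, had 105, 96.5, 114 and 93.7 CPM in DDC 0D livers, against 188, 198, 175 and 185 CPM in Control 0D livers. Every DDC 0D library was lower (-0.87 ± 0.14, adjusted p = 1.97e-06). Among the regulators, Ppara had 151, 144, 214 and 135 CPM in DDC 0D livers, against 301, 385, 313 and 273 CPM in Control 0D livers. It fell without overlap (-0.98 ± 0.23, adjusted p = 4.74e-04). Pdk4 had 19.7, 19.2, 16.3 and 12.0 CPM in DDC 0D livers, against 25.3, 34.6, 14.1 and 19.9 CPM in Control 0D livers, and its overlapping groups gave no call (-0.49, 95% interval -1.08 to 0.10, adjusted p = 0.176).

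**Figure D2:**
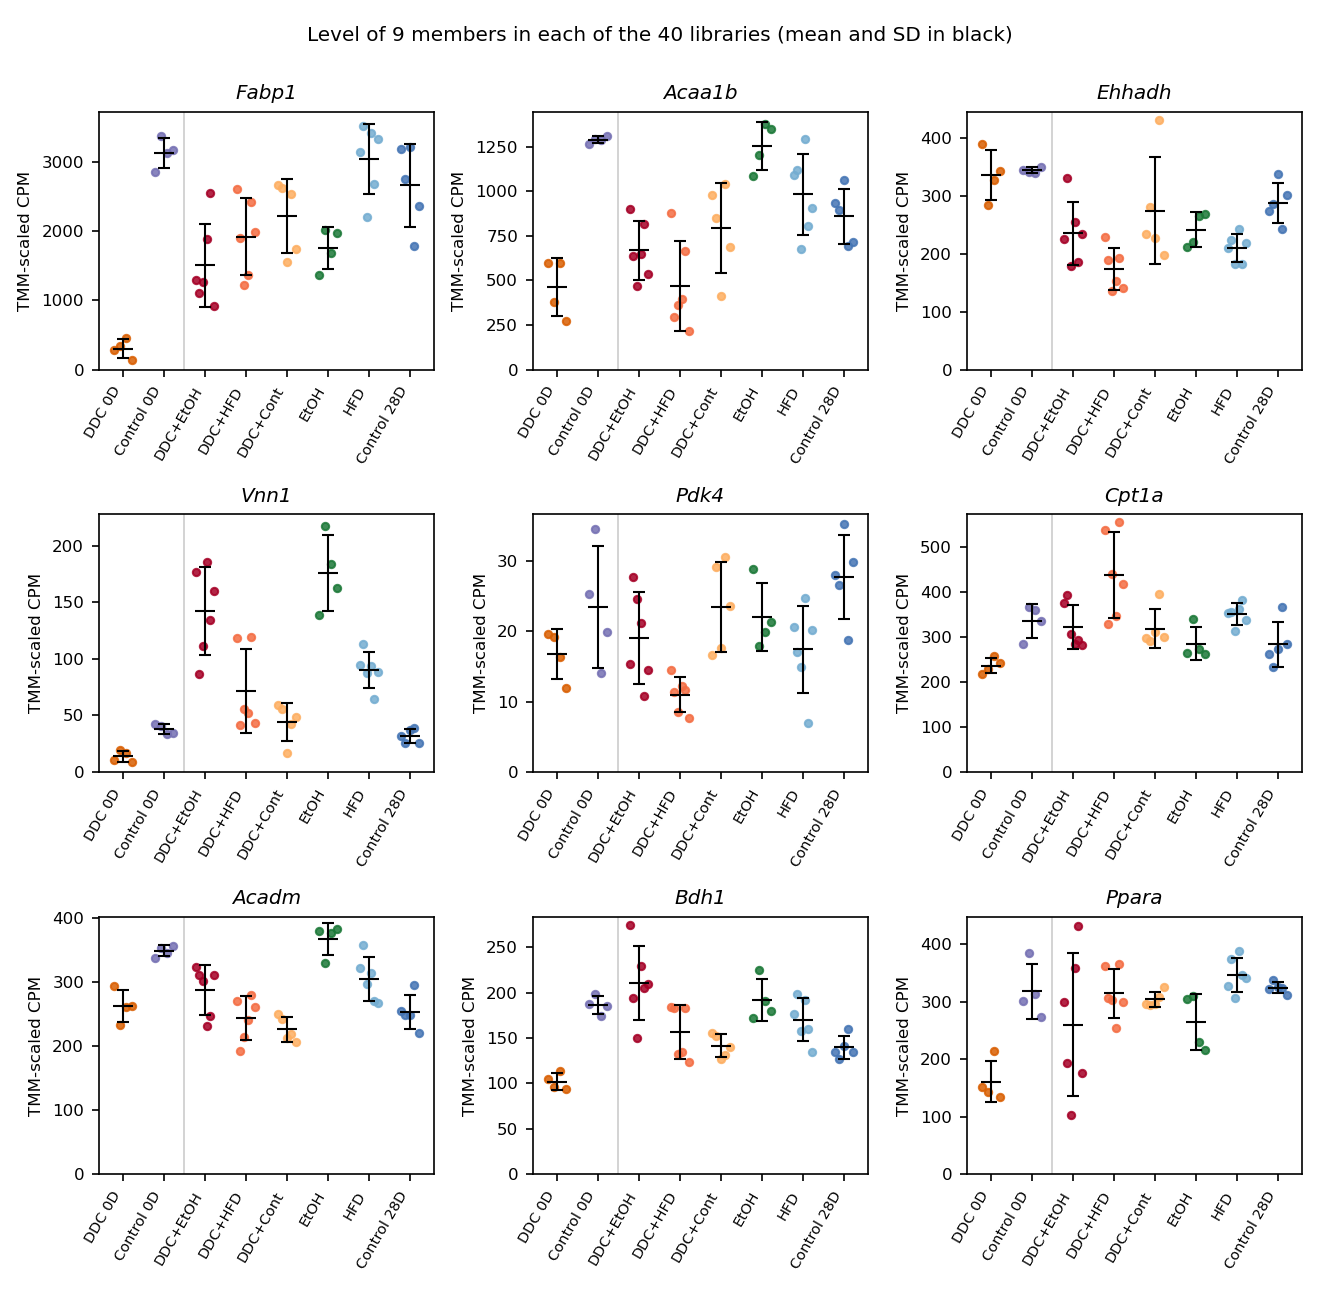
TMM-scaled CPM (y axis, one panel per gene) of Fabp1, Acaa1b, Ehhadh, Vnn1, Pdk4, Cpt1a, Acadm, Bdh1 and Ppara in every library, by group (x axis), with the mean and SD in black. Fabp1 lies between 132 and 463 CPM in DDC 0D livers and at 922 CPM or more in every other library, and Vnn1 is highest in the EtOH and DDC+EtOH livers.

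Genes of the same pathway outside the 34 were also lower for the most part. Of 38 tested members of a second list of fatty acid oxidation and ketone body genes, 25 were lower and 6 higher, with a median log2 fold change of -0.78. Hacl1, a peroxisomal lyase of branched chains, fell at -2.13, Acadsb, a short and branched-chain dehydrogenase, at -1.43, and Slc27a5, a transporter and bile acid ligase, at -1.42. Those that rose included Cpt1c, a brain form of Cpt1, at 2.22, Oxct1, the ketone-using enzyme that hepatocytes hold little of, at 1.71, and Acsl4, an arachidonate ligase, at 0.62. Of 36 further targets and partners of PPAR-alpha, 18 were lower and 4 higher, with a median of -0.40. Ephx2, a soluble epoxide hydrolase, fell at -1.38 and Mgll, a monoglyceride lipase, at -1.76, while Cd36, a fatty acid receptor of macrophages and endothelium as well as hepatocytes, rose at 1.32.

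The make-up of the tissue moved with these values. Hepatocyte markers were lower for 17 of 20 genes and summed to 98798 to 111890 CPM in DDC 0D livers, against 141550 to 156710 CPM in Control 0D livers. Bile duct markers rose for 12 of 13 genes and summed to 975 to 1149 CPM in DDC 0D livers, against 46.9 to 61.2 CPM in Control 0D livers. Stellate cell markers rose for 12 of 13 genes (1694 to 2012 CPM in DDC 0D livers, 578 to 630.2 CPM in Control 0D livers) and macrophage markers for 12 of 14 (1312 to 1831 CPM in DDC 0D livers, 338 to 535 CPM in Control 0D livers). In whole liver, fewer hepatocytes and less RNA of these genes in each hepatocyte cannot be told apart. The 20 hepatocyte markers themselves ran from -6.28 to 0.42 in log2 fold change, so scaling to them does not measure hepatocyte number. With libraries scaled to the hepatocyte marker list, the median of all genes moved to 0.52, 16 members were lower (5.79% of all tested genes) and 1 was higher (58.6% of all tested genes), and the member median was -0.37. Fabp1, Acsl1, Slc27a2, Acaa2 and Acaa1b were among those still lower, Cpt1a stood at 0.01 and Acadm at 0.11, and Ehhadh was the 1 higher (0.48, adjusted p = 0.0195).

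**Figure D3:**
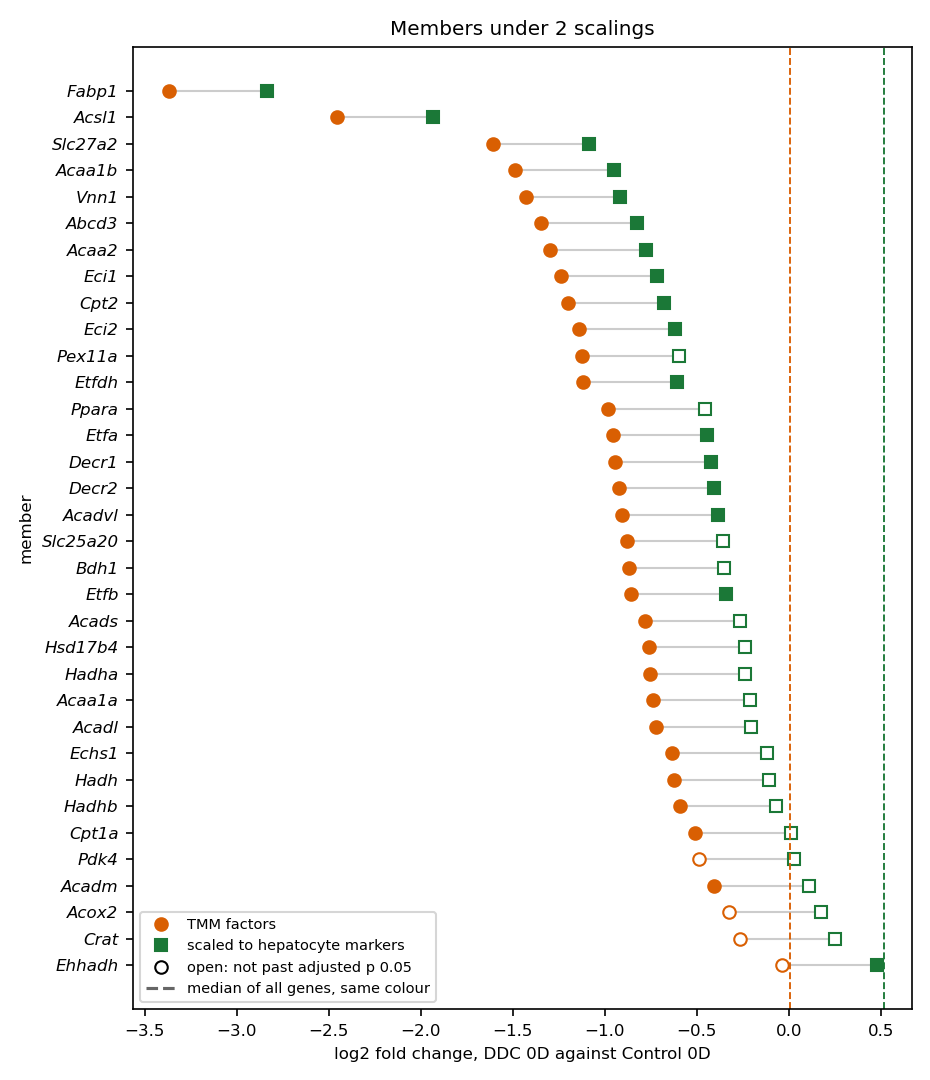
Log2 fold change of each member (y axis: gene; x axis: log2 scale) in DDC 0D against Control 0D livers with TMM scaling (circles) and with scaling to the 20 hepatocyte markers (squares), filled where the adjusted p is under 0.05; dashed lines are the medians of all genes, 0.01 and 0.52. Every member lies higher under the hepatocyte scaling, where 16 are lower and Ehhadh is higher at the threshold.

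A clock score, the mean log2 CPM of Arntl, Npas2 and Clock less that of Dbp, Tef, Hlf and Per3, was -2.71 to -0.622 in DDC 0D livers and 1.12 to 2.82 in Control 0D livers. Its part in the falls was not tested beyond a fit with the score as a term, in which Acadm was the 1 member that lost its call.

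After DDC was followed by the control diet, no member was called between DDC+Cont and Control 28D livers. None of the 34 was called by edgeR, and DESeq2 also called 0, while 1.23% of all tested genes were called higher and 0.286% lower by edgeR. At an unadjusted p under 0.05, 3 of the 34 members passed, no larger a share than the 1692 of 14355 over all tested genes. These were Abcd3 (-0.37), Slc25a20 (-0.27) and Hsd17b4 (-0.21). The member median was -0.13 and 30 of 34 log2 fold changes were below 0, against 7377 of 14355 over all tested genes. All 34 lay between -0.37 and 0.48. With the hepatocyte scaling the member median was 0.01 and again 0 were called, while 2.42% of all tested genes were higher and 0.104% lower.

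Fabp1 had 2670, 2622, 1558, 2541 and 1737 CPM in DDC+Cont livers, against 3189, 2750, 3221, 1787 and 2360 CPM in Control 28D livers. The groups overlapped (-0.26, 95% interval -0.75 to 0.24), and the interval excludes the fall of DDC 0D livers. Acaa1b had 977, 850, 415, 1043 and 685 CPM in DDC+Cont livers, against 936, 893, 1062, 693 and 718 CPM in Control 28D livers. Its spread was wide in the DDC+Cont livers, and a change of up to -0.65 lay within the interval (-0.12, 95% interval -0.65 to 0.41). Ppara had 296, 294, 296, 308 and 326 CPM in DDC+Cont livers, against 322, 338, 326, 323 and 311 CPM in Control 28D livers, again with overlap (-0.09, 95% interval -0.49 to 0.31). Vnn1 had 59.4, 55.4, 16.7, 42.8 and 48.5 CPM in DDC+Cont livers, against 32.0, 25.3, 37.5, 38.7 and 25.9 CPM in Control 28D livers. Of the 5 DDC+Cont libraries 4 were above all controls and 1 was below them, and it was not called (0.48, 95% interval -0.09 to 1.05).

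Acadm, Cpt1a and Bdh1 were as close, with intervals of -0.36 to 0.03 for Acadm and -0.08 to 0.42 for Cpt1a and a log2 fold change of 0.02 for Bdh1. In the second list of oxidation genes 0 of 38 were called by edgeR. At an unadjusted p under 0.05 there were 6 of 38, against 1692 of 14355 over all tested genes. Among the further PPAR-alpha genes Cd36 was the 1 called, at 0.71. Markers of other cells were still called higher, 3 of 13 for bile duct, 3 of 13 for stellate cells and 3 of 14 for macrophages.

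Set directly against DDC 0D livers, 27 members were higher in DDC+Cont livers and 0 lower, where 20.2% and 23.2% of all tested genes were called. For 21 members all DDC+Cont libraries lay above all DDC 0D libraries, against 15.3% of all genes. Fabp1 averaged 2225 ± 533 CPM in DDC+Cont livers and 303 ± 138 CPM in DDC 0D livers (2.88 ± 0.30, adjusted p = 8.89e-10). Slc27a2 had 1226, 1158, 919, 1266 and 1052 CPM in DDC+Cont livers, against 408, 365, 462 and 419 CPM in DDC 0D livers (1.44 ± 0.15, adjusted p = 1.19e-09). Acaa2 had 779.8, 872, 679, 705 and 672 CPM in DDC+Cont livers, against 435.9, 351, 477 and 416 CPM in DDC 0D livers (0.82 ± 0.10). In both genes every DDC+Cont library was above every DDC 0D library. Acsl1 (1.59), Vnn1 (1.67), Ppara (0.92), Acaa1b (0.79), Bdh1 (0.47) and Cpt1a (0.43) were higher as well. Acadm at -0.22, Ehhadh at -0.29, Crat at 0.04 and Pdk4 at 0.50 were among the 7 not called. Scaled to the hepatocyte markers, 7 members were higher (4.95% of all tested genes) and 3 lower (54.9%), and Cpt1a (-0.02), Slc25a20 (-0.07), Hadh (-0.09) and Hadha (-0.06) turned in sign. The groups also differ by 28 days of a second regimen, which cannot be told apart from the end of DDC in this comparison.

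The difference between the DDC effects at the 2 stages, tested as an interaction in the same fit, was higher for 29 of 34 members and lower for none (14.5% and 17.6% of all tested genes). It was 3.11 ± 0.39 for Fabp1 (adjusted p = 1.75e-07), 2.13 for Acsl1 and 1.15 for Acaa2, on the log2 scale. The 5 members without a call were Acadm (0.24), Crat (0.34), Pdk4 (0.25), Acox2 (0.09) and Ehhadh (-0.03). Scaled to the hepatocyte markers, with the median of all genes at -0.39, 9 members were higher (4.04% of all tested genes) and 0 lower (33.2%). This comparison and the 3 before it share libraries.

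**Figure D4:**
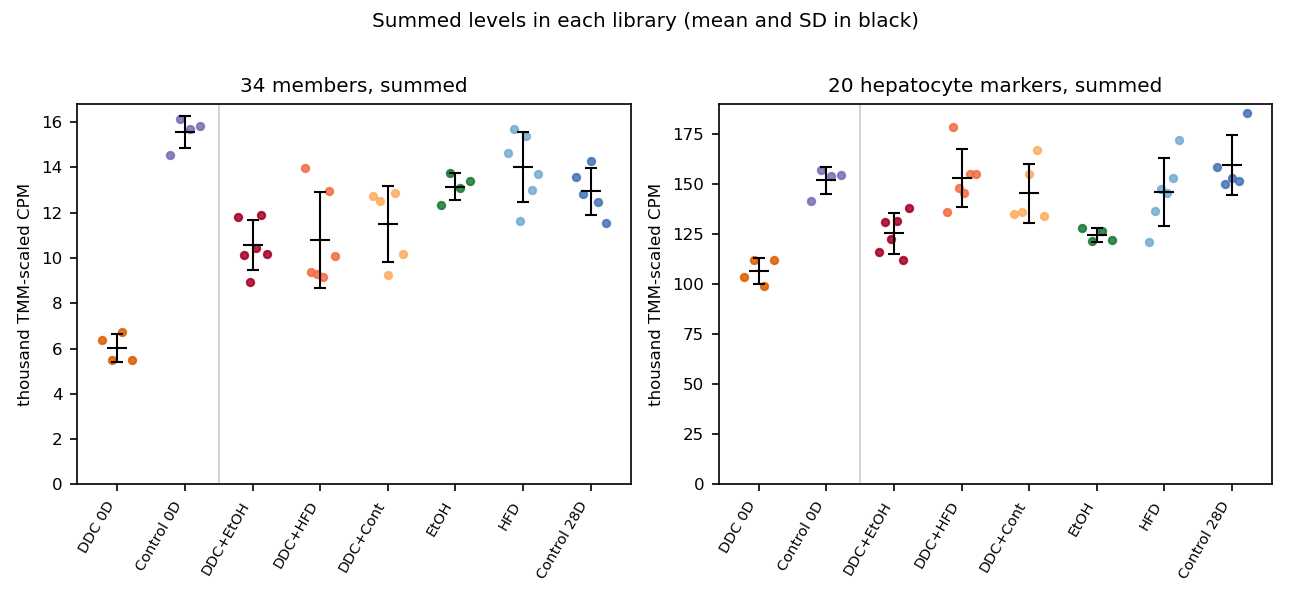
Summed TMM-scaled CPM (y axis, drawn in units of 1000 CPM) of the 34 members and of the 20 hepatocyte markers in every library, by group (x axis), with the mean and SD. The members sum to 6028 CPM on average in DDC 0D livers and to between 10570 and 15560 CPM on average in the other groups.

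The 2 control groups were not equal. Acadm had 255, 249, 249, 295 and 220.2 CPM in Control 28D livers, against 339, 354, 346 and 358 CPM in Control 0D livers. The groups did not overlap, and it was the 1 member called of 34 (-0.46 ± 0.11, adjusted p = 0.0120), while 0.836% of all tested genes were called lower and 1.62% higher. The call was lost without Control 0D replicate 4 (adjusted p = 0.0526) and when scaled to hepatocyte markers (adjusted p = 0.0863). In 12 members, Bdh1, Acaa1b, Ehhadh and Acsl1 among them, every Control 28D library was below every Control 0D library, as for 4.63% of all genes, and the member median was -0.23.

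Without DDC, Vnn1 was the 1 member called between HFD and Control 28D livers. Vnn1 had a lowest, median and highest level of 64.4, 90.9 and 113 CPM in HFD livers, against 32.0, 25.3, 37.5, 38.7 and 25.9 CPM in Control 28D livers. Every HFD library was above every control, at 2.83-fold the control level (1.50 ± 0.28, adjusted p = 0.00693), where 0.216% of all tested genes were called higher and 0.16% lower. Ehhadh had 182, 215 and 243 CPM in HFD livers, as lowest, median and highest, against 274, 286, 338, 244 and 301 CPM in Control 28D livers. It lay lower in every HFD library but was not called (-0.46, adjusted p = 0.259). Pdk4 (-0.68, adjusted p = 0.329) and Cpt1a (0.31, 95% interval 0.07 to 0.55) were not called either. At an unadjusted p under 0.05, 9 of the 34 members passed, against 1312 of 14355 over all tested genes. Outside the 34, Slc22a5, the carnitine importer, rose at 0.73 and Cd36 at 0.69.

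HFD with ethanol raised 9 members and lowered none in EtOH livers against Control 28D livers, where 9.99% of all tested genes were called higher and 8.2% lower. Those 9 included Vnn1 of uptake, binding and activation, Crat of the carnitine shuttle and 4 of the spiral (Acadm, Acads, Hadha, Hadh). The others were Eci2 of the double-bond enzymes, the ketone body enzyme Bdh1 and the peroxisomal Pex11a. None of the 2 regulators of fuel choice and none of the 3 electron transfer members was called. In 12 members every EtOH library lay above every control, against 10.7% of all genes.

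Vnn1 had 139, 218, 184 and 163 CPM in EtOH livers, against 32.0, 25.3, 37.5, 38.7 and 25.9 CPM in Control 28D livers. The lowest EtOH library was above all controls by a wide margin, and the level was 5.51-fold higher (2.46 ± 0.31, adjusted p = 4.41e-07). Acadm had 380.1, 331, 378 and 383 CPM in EtOH livers, against 255, 249, 249, 295 and 220.2 CPM in Control 28D livers. It rose without overlap (0.54 ± 0.11, adjusted p = 2.99e-04). Crat had 86.1, 62.5, 69.1 and 77.4 CPM in EtOH livers, against 45.7, 36.8, 51.0, 36.2 and 46.7 CPM in Control 28D livers. Its groups were apart too (0.77 ± 0.17, adjusted p = 0.00112). Bdh1 had 172, 224, 191 and 179.7 CPM in EtOH livers, against 134, 127, 142, 160.4 and 135 CPM in Control 28D livers, and rose (0.46 ± 0.13, adjusted p = 0.0112). Acads (0.48), Pex11a (0.76), Hadha (0.25), Hadh (0.33) and Eci2 (0.41) rose as well.

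Ppara averaged 265 ± 49.1 CPM in EtOH livers and 324 ± 9.60 CPM in Control 28D livers and was not called (-0.29, 95% interval -0.72 to 0.13). Nor were Fabp1 (-0.60, 95% interval -1.13 to -0.07), Cpt1a (0.01, 95% interval -0.26 to 0.27), Ehhadh (-0.26), Pdk4 (-0.34) or Acaa1b (0.54, 95% interval -0.02 to 1.10), although every EtOH library of Acaa1b was above every control. Of the second oxidation list, 7 of 38 rose and 12 fell, with Abcd2, a peroxisomal transporter, at 1.87 and Slc22a5 at 1.38 among the higher and Hsd17b10, an amino acid and fatty acid dehydrogenase, at -0.94 among the lower. Of the further PPAR-alpha genes 14 of 36 rose and 2 fell, with Cd36 at 1.88 and the lipid droplet protein Cidec at 1.97 among the higher.

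Hepatocyte markers were lower for 5 of 20 genes and summed to 121510 to 128120 CPM in EtOH livers, against 149760 to 185400 CPM in Control 28D livers. Scaled to them, the median of all genes moved to 0.35, and 23 members were higher and 0 lower (39.8% and 1.94% of all tested genes). The clock score was -2.19 to 0.239 in EtOH livers and 1.85 to 2.51 in Control 28D livers, and with it as a term Bdh1, Eci2, Hadh and Hadha lost their calls while Ppara (-0.81, adjusted p = 0.00598) and Fabp1 (-1.02, adjusted p = 0.0175) became lower, so that 5 members were higher and 2 lower. The count of 9 was 5 without Control 28D replicate 13.

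In EtOH against HFD livers, which differ by ethanol in their labels, 4 members were called, no larger a share than over all tested genes. Of these 4 members, 3 were higher (7.84% of all tested genes) and 1 lower (5.61%). This comparison shares its EtOH libraries with the one above. Acads, the short-chain dehydrogenase, had 177, 178, 204 and 172 CPM in EtOH livers, against a lowest, median and highest of 120.4, 142 and 154 CPM in HFD livers. The groups did not overlap (0.39 ± 0.12, adjusted p = 0.0201). Vnn1 had 139, 218, 184 and 163 CPM in EtOH livers, against 64.4, 90.9 and 113 CPM in HFD livers, so that every EtOH library was higher (0.96 ± 0.29, adjusted p = 0.0203). Fabp1 had 1362, 2016, 1690 and 1975 CPM in EtOH livers, against 2200, 3232 and 3515 CPM in HFD livers. All EtOH libraries were lower (-0.79 ± 0.26, adjusted p = 0.0401). Hadha, the other higher member, had 396, 435, 389 and 424 CPM in EtOH livers, against 319.9, 357 and 385 CPM in HFD livers, which did not overlap (0.21, adjusted p = 0.0469).

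These 4 calls were near the threshold. Without EtOH replicate 22 no member was called, Acads also missed it without HFD replicate 19 (adjusted p = 0.0516), and Vnn1 missed it without EtOH replicate 21 (adjusted p = 0.0865) or with the clock score as a term (adjusted p = 0.0848). The Fabp1 call was lost with any 1 EtOH library left out, with a term for the lane (adjusted p = 0.0677) and with the hepatocyte scaling (adjusted p = 0.156). The balance of higher and lower members depended on the fit. With the hepatocyte scaling 6 members were higher and 0 lower (19.9% and 1.69% of all tested genes), and with a term for the lane 5 were higher and 0 lower. With only these 2 groups in the fit 3 were higher and 6 lower, Ppara (-0.40), Cpt1a (-0.31), Etfa (-0.28), Decr2 (-0.27) and Acaa2 (-0.25) among the lower. Shares over all tested genes are not given for the lane fit and the fit of 2 groups, so their counts are not set against a background. Hepatocyte markers were lower for 3 of 20 genes in EtOH livers. Of the second oxidation list 3 of 38 were higher and 7 lower, and of the further PPAR-alpha genes 10 of 36 were higher, Cyp4a14, a fatty acid omega-hydroxylase, at 3.71 and Cd36 at 1.19 among them, and 2 were lower.

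**Figure D5:**
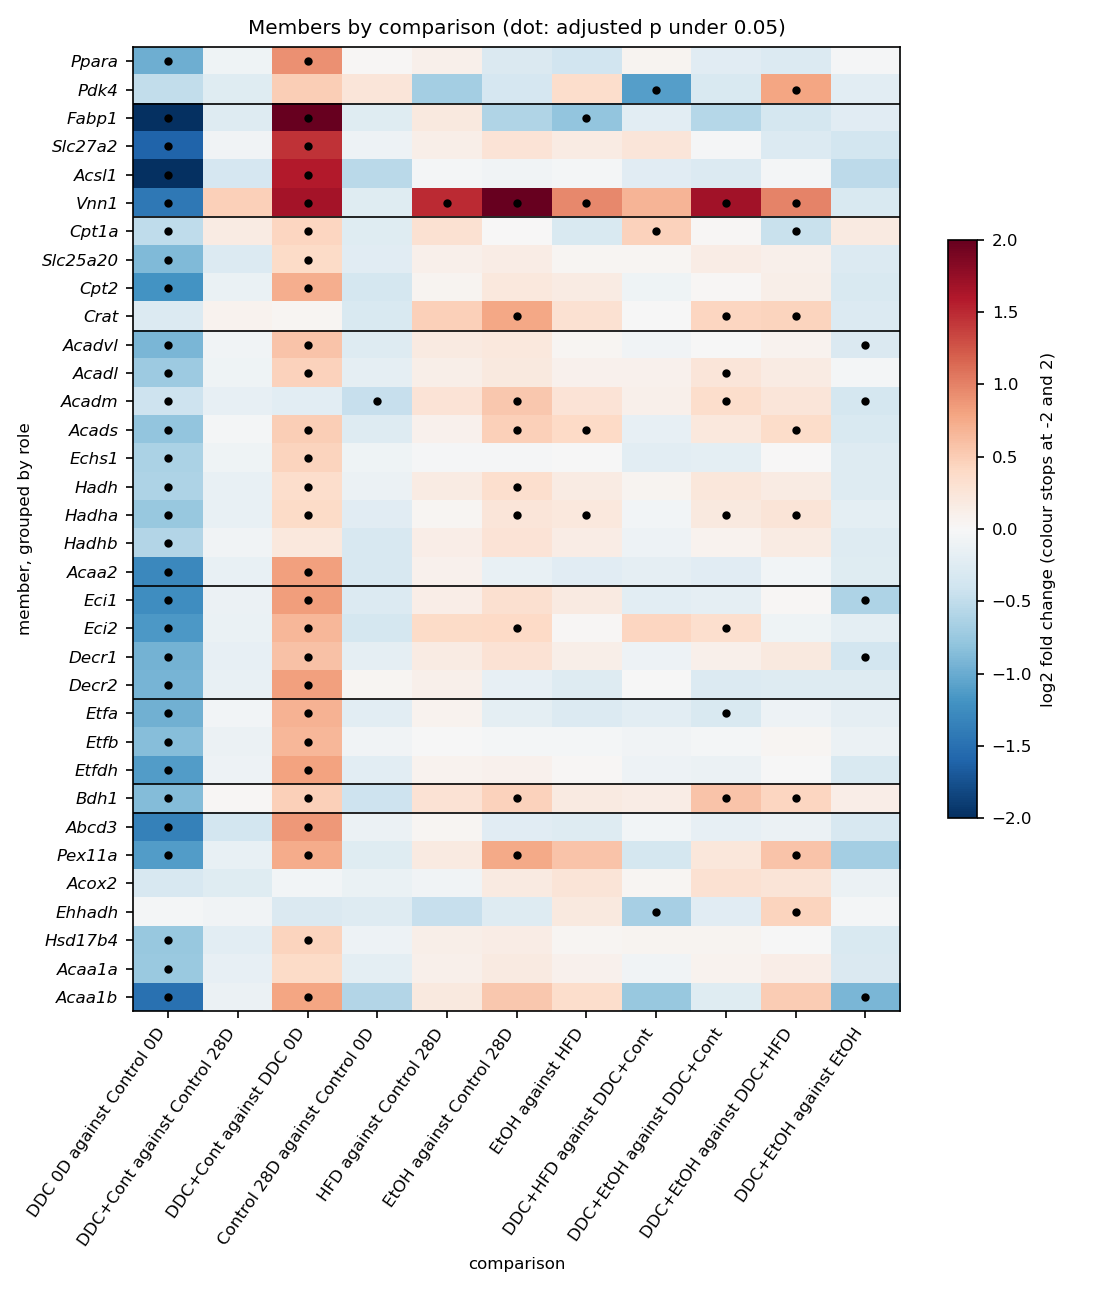
Log2 fold change (colour, which stops at 2 in either direction) of the 34 members (rows, by role) in the 11 comparisons of 2 groups (columns), with a dot where the adjusted p is under 0.05. Dots mark 30 members in DDC 0D against Control 0D and 27 in DDC+Cont against DDC 0D, and Vnn1 has a dot in each comparison of an EtOH group with an HFD or control group that received the same earlier diet.

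After DDC, HFD moved 3 members in DDC+HFD livers against DDC+Cont livers, 1 higher and 2 lower, where 1.87% of all tested genes were called higher and 1.53% lower. Pdk4 had a lowest, median and highest level of 7.66, 11.5 and 14.5 CPM in DDC+HFD livers, against 16.6, 29.1, 17.7, 30.6 and 23.6 CPM in DDC+Cont livers. All DDC+HFD libraries were below the others (-1.10 ± 0.26, adjusted p = 0.0152). Ehhadh had 136, 172 and 229.6 CPM in DDC+HFD livers, against 235, 282, 228, 431 and 199 CPM in DDC+Cont livers. It fell with overlap (-0.66 ± 0.15, adjusted p = 0.0121). Cpt1a had 328, 430.1 and 557 CPM in DDC+HFD livers, against 297, 291, 311, 396 and 301 CPM in DDC+Cont livers, and rose with overlap (0.46 ± 0.12, adjusted p = 0.0284). Acaa1b averaged 469 ± 251 CPM in DDC+HFD livers, against 794 ± 252 CPM in DDC+Cont livers, and was not called (-0.76, 95% interval -1.27 to -0.25, adjusted p = 0.0910).

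The Cpt1a call was lost in a fit without the 7 libraries of high pancreatic markers (adjusted p = 0.562), 3 of which are DDC+HFD libraries and 1 a DDC+Cont library, and with the hepatocyte scaling (adjusted p = 0.148). The Ehhadh call was lost without DDC+Cont replicate 28 (adjusted p = 0.0859) and the Pdk4 call without DDC+Cont replicate 25 or 28, and both were lost with the clock score as a term. The member count ran from 1 without DDC+Cont replicate 25 to 4 without DDC+Cont replicate 26. Without the libraries of high pancreatic markers it was 6, all of them lower, with Acaa1b (-1.31), Acsl1 (-0.61), Eci1 (-0.48) and Acads (-0.39) among them. With the hepatocyte scaling 0 were higher and 2 lower (0.815% and 0.906% of all tested genes).

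Neutrophil markers moved in the same comparison. They were higher for 6 of 7 tested genes and summed to 18.4 to 746 CPM in DDC+HFD livers, against 16.0 to 124 CPM in DDC+Cont livers. The DDC+HFD libraries stood apart from each other in this respect. In replicates 32, 33, 35 and 37 the neutrophil markers summed to 526, 746, 279 and 176 CPM and the 34 members to 9373, 9286, 9162 and 10072 CPM. In replicates 30 and 36 the neutrophil markers summed to 18.4 and 29.8 CPM and the members to 13981 and 12942 CPM. Both of these last libraries and replicate 33 are among those of high pancreatic markers. Bile duct markers were higher for 3 of 13 genes in DDC+HFD livers (145 to 247 CPM, against 101 to 149 CPM in DDC+Cont livers). The part of these cells in the member values was not tested.

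In DDC+EtOH against DDC+HFD livers, which differ by ethanol in their labels, 8 members were higher (8.53% of all tested genes) and 1 lower (8.02%). Hadha had a lowest, median and highest level of 344, 357 and 382 CPM in DDC+EtOH livers, against 263, 304 and 336 CPM in DDC+HFD livers. It was the 1 member whose groups did not overlap (0.26 ± 0.07, adjusted p = 0.00498), against 2.17% of all genes. Bdh1 had 150.1, 207 and 275 CPM in DDC+EtOH livers, against 124, 159 and 184 CPM in DDC+HFD livers, and rose (0.42 ± 0.11, adjusted p = 0.00699). Vnn1 had 86.8, 147 and 186 CPM in DDC+EtOH livers, against 41.9, 53.8 and 119 CPM in DDC+HFD livers, and rose with overlap (0.99 ± 0.26, adjusted p = 0.00732). Cpt1a was the lower member, with 283, 299 and 394 CPM in DDC+EtOH livers, against 328, 430.1 and 557 CPM in DDC+HFD livers (-0.44 ± 0.12, adjusted p = 0.00675). Pdk4 (0.79), Ehhadh (0.44), Acads (0.37), Crat (0.44) and Pex11a (0.58) were the others that rose.

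In a fit of these 2 groups alone none of the 34 was called, and without the libraries of high pancreatic markers 5 were higher. The count of 9 was 4 without DDC+HFD replicate 37 and 13 without DDC+HFD replicate 30. Hepatocyte markers summed to 111940 to 138060 CPM in DDC+EtOH livers, against 135740 to 178300 CPM in DDC+HFD livers, and scaled to them 19 members were higher and 0 lower (35.8% and 2.25% of all tested genes). Neutrophil markers were lower for 6 of 7 tested genes (13.5 to 53.0 CPM in DDC+EtOH livers, 18.4 to 746 CPM in DDC+HFD livers) and stellate cell markers higher for 4 of 13 (732 to 1161 CPM in DDC+EtOH livers, 757 to 908 CPM in DDC+HFD livers). Their part in the member values was not tested.

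Against DDC+Cont livers, DDC+EtOH livers had 7 members higher (12.4% of all tested genes) and 1 lower (11.2%). Vnn1 had a lowest, median and highest of 86.8, 147 and 186 CPM in DDC+EtOH livers, against 59.4, 55.4, 16.7, 42.8 and 48.5 CPM in DDC+Cont livers. No library overlapped and the level was 3.20-fold higher (1.68 ± 0.28, adjusted p = 4.02e-05). Bdh1 had 150.1, 207 and 275 CPM in DDC+EtOH livers, against 156, 152, 127, 131 and 140.3 CPM in DDC+Cont livers, and rose with a slight overlap (0.57 ± 0.12, adjusted p = 4.06e-04). Acadm had 232, 307 and 323 CPM in DDC+EtOH livers, against 250.3, 244, 213, 219 and 206 CPM in DDC+Cont livers, and rose (0.35 ± 0.10, adjusted p = 0.00707). Etfa, the alpha subunit of the electron transfer flavoprotein, was the lower member, with 144, 152 and 173 CPM in DDC+EtOH livers, against 205, 194, 194, 198 and 169.9 CPM in DDC+Cont livers, where 1 library overlapped (-0.31, adjusted p = 0.00917). Hadha (0.20), Acadl (0.24), Crat (0.43) and Eci2 (0.34) were the other higher members. The count of 8 was 5 without DDC+Cont replicate 29 and 4 without the libraries of high pancreatic markers, 3 higher and 1 lower.

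With the clock score as a term 2 members were higher and 2 lower in DDC+EtOH against DDC+Cont livers, the lower ones being Fabp1 (-1.10, adjusted p = 0.0108) and Ppara (-0.92, adjusted p = 0.00264). Ppara was also called lower with that term in DDC+EtOH against DDC+HFD livers (-0.66, adjusted p = 0.00636) and in EtOH against HFD livers (-0.83, adjusted p = 0.00349). The score was -2.35 to 1.26 in DDC+EtOH livers and 2.26 to 2.55 in DDC+Cont livers. Hepatocyte markers were lower for 6 of 20 genes and higher for 1 (111940 to 138060 CPM in DDC+EtOH livers, 133680 to 166720 CPM in DDC+Cont livers), and scaled to them 10 members were higher and 0 lower (25.8% and 3.27% of all tested genes). Stellate cell markers rose for 7 of 13 genes (732 to 1161 CPM in DDC+EtOH livers, 611 to 881 CPM in DDC+Cont livers) and macrophage markers for 4 of 14 (825 to 1429 CPM in DDC+EtOH livers, 658 to 959 CPM in DDC+Cont livers). Their part in the member values was not tested.

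With the same HFD/EtOH regimen, livers that had earlier received DDC held less RNA of 5 members than livers that had not, and more of none (2.57% and 4.12% of all tested genes). Over the members the median log2 fold change of DDC+EtOH against EtOH livers was -0.27, 32 of 34 were below 0, and 11 had no overlap, against 2.73% of all genes. Eci1, an enoyl-CoA isomerase, had a lowest, median and highest of 54.5, 71.1 and 88.9 CPM in DDC+EtOH livers, against 107, 95.9, 113 and 121 CPM in EtOH livers (-0.62 ± 0.15, adjusted p = 0.00719). Acadm had 232, 307 and 323 CPM in DDC+EtOH livers, against 380.1, 331, 378 and 383 CPM in EtOH livers (-0.35 ± 0.10, adjusted p = 0.0273). Acadvl had 307, 381 and 406 CPM in DDC+EtOH livers, against 459, 437, 461 and 458 CPM in EtOH livers (-0.29, adjusted p = 0.0281). In each of these the DDC+EtOH libraries all lay below the EtOH libraries.

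Acaa1b had 467, 644 and 899.8 CPM in DDC+EtOH livers, against 1087, 1201, 1375 and 1347 CPM in EtOH livers, again without overlap (-0.91 ± 0.27, adjusted p = 0.0370). Decr1 was the other called member (-0.36, adjusted p = 0.0404). Vnn1 was not called (-0.30, 95% interval -0.87 to 0.26), nor were Fabp1 (-0.23), Bdh1 (0.14), Cpt1a (0.18) and Ppara, which varied from 103 to 431 CPM among the DDC+EtOH livers. Ppara had 299, 358 and 431 CPM in DDC+EtOH replicates 38, 41 and 42, whose clock scores were -2.19, -2.26 and -2.35. It had 194, 103 and 177 CPM in DDC+EtOH replicates 39, 40 and 43, whose clock scores were 1.02, 0.822 and 1.26. The part of the clock in this spread was not tested beyond the fits with the score as a term. The count of 5 was 1 without EtOH replicate 20, 12 without DDC+EtOH replicate 38, 12 with sequencing lane as a term, 11 without the libraries of high pancreatic markers and 0 with the hepatocyte scaling, where 3.15% of all tested genes were higher and 0.718% lower. Bile duct markers rose for 7 of 13 genes (100.1 to 233 CPM in DDC+EtOH livers, 59.5 to 72.0 CPM in EtOH livers), stellate cell markers for 5 of 13 (732 to 1161 CPM in DDC+EtOH livers, 629 to 786 CPM in EtOH livers) and macrophage markers for 5 of 14 (825 to 1429 CPM in DDC+EtOH livers, 807 to 916 CPM in EtOH livers). Hepatocyte markers were lower for 3 of 20 genes, and the part of these cells in the lower member values was not tested.

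Whether earlier DDC changed the effect of ethanol was tested as an interaction, the change of DDC+EtOH against DDC+HFD less that of EtOH against HFD. No member was called by edgeR, nor was any of the 14355 genes (0%), and DESeq2 called 0 members as well. At an unadjusted p under 0.05 the 1 member was Slc27a2 (-0.43, adjusted p = 0.943). The difference was 0.03 for Vnn1 (95% interval -0.73 to 0.79), 0.44 for Fabp1 (-0.24 to 1.12), 0.25 for Bdh1 (-0.08 to 0.58) and -0.03 for Acadm (-0.30 to 0.24). These intervals leave room for differences as large as the ethanol effects of Fabp1 and Bdh1, so the effects of ethanol with and without DDC are not shown to be alike.

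Several members share exon bases with a neighbouring gene in GENCODE vM21, and whether the counting used strand is not stated in the labels. The shared stretches were 1151 bases for Acadvl with Dvl2, 290 for Acaa1a with Myd88, 278 for Etfdh with 4930579G24Rik, 224 for Acaa1b with Dlec1, 142 for Echs1 with Paox, 61 for Etfb with Mir7051 and 59 for Crat with Dolpp1. Tallies kept apart from the genes held ambiguous reads (0.345% to 0.663% by library) and reads aligned to several places (17.1% to 28.7%). Reads of these stretches could therefore be left out of both genes, or mixed between them.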

How the data were processed

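The deposited values are raw counts of reads per gene symbol, 1 file per library, as the authors made them; 24499 genes are followed by 5 closing tallies that name no gene, which were left out, and 41.0% to 51.8% of tallied reads were on genes. Per the labels, the TruSeq mRNA kit was used on total RNA of liver. GSNAP, DESeq2 1.12.3 and the build mm10 are named in the submitters' processing notes, which give no role for them; the counting program and its strand setting are not stated.

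A single fit in edgeR 4.0.16 (R 4.3.3) held the 40 libraries in 8 groups, with TMM factors, the filterByExpr default (14355 genes), robust quasi-likelihood F tests, two-sided, and Benjamini-Hochberg adjustment over all genes tested, in 13 comparisons of which 2 were interactions. A call is an adjusted p under 0.05. Errors are SE for log2 fold changes and SD for levels. DESeq2 1.42.0, other scalings, filters, covariates and 40 fits that each left out 1 library were alternatives, and the fit was tested on simulated data. The members and gene lists were chosen with earlier results of these data known. Any member may be named; values in each library were set to go to the members of smallest adjusted p and to Ppara, Cpt1a, Acadm, Ehhadh, Acaa1b, Bdh1, Pdk4, Fabp1 and Vnn1, and up to 4 genes of other lists per direction are named. Groups came from the labels, and lanes 1 to 6 were spread over them. RefSeq promoter windows matched 29 of the 34 members. Intervals cover the spread between libraries.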

Additional observations from a re-analysis of the deposited data

Results flagged for a closer look

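In 16 of 272 groups of 4 to 6 libraries of one member, 1 library lay far from the others by Dixon's criterion, where chance gives about 1 in 20 groups, or 13.6. In the EtOH livers replicate 21 stood apart for Slc27a2 (1670 CPM), Cpt1a (340 CPM), Acadvl (437 CPM), Acadm (331 CPM) and Eci2 (183 CPM), replicate 20 for Acox2 (259 CPM) and replicate 23 for Decr1 (253 CPM). EtOH replicate 21 also had a clock score of -2.19, against 0.239, 0.187 and 0.144 in EtOH replicates 20, 22 and 23. The part of the clock in its levels was not tested. In the DDC+Cont livers replicate 28 stood apart for Cpt1a (396 CPM) and Etfb (195 CPM) and replicate 26 for Pex11a (8.95 CPM). In the Control 28D livers replicate 12 stood apart for Slc27a2 (1500 CPM) and replicate 13 for Acaa2 (708 CPM). The others were Acads in DDC+EtOH replicate 38 (186 CPM), Echs1 in DDC 0D replicate 6 (134 CPM) and Acox2 in HFD replicate 19 (214 CPM) and DDC+HFD replicate 36 (317 CPM).

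The DDC effect differed between stages for 29 members, tested as an interaction by edgeR. The log2 difference, the effect in DDC+Cont against Control 28D less that in DDC 0D against Control 0D, was 3.11 for Fabp1, 2.13 for Acsl1, 1.91 for Vnn1 and 1.54 for Slc27a2 among the genes of uptake and activation. In the carnitine shuttle it was 0.68 for Cpt1a, 0.61 for Slc25a20 and 1.07 for Cpt2. In the mitochondrial spiral it was 0.84 for Acadvl, 0.64 for Acadl, 0.75 for Acads, 0.54 for Echs1, 0.48 for Hadh, 0.61 for Hadha, 0.52 for Hadhb and 1.15 for Acaa2. It was 1.12 for Eci1, 1.01 for Eci2, 0.77 for Decr1, 0.78 for Decr2, 0.89 for Etfa, 0.74 for Etfb, 1.01 for Etfdh and 0.88 for Bdh1. In the peroxisome it was 0.98 for Abcd3, 0.98 for Pex11a, 0.56 for Hsd17b4, 0.58 for Acaa1a and 1.37 for Acaa1b, and it was 0.89 for Ppara.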

How the results depend on the processing

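Over the 442 pairs of member and comparison, DESeq2 kept 435 on their side of the threshold and the median-ratio factors 439. Scaling to the hepatocyte marker list moved most counts of called members: 17 in DDC 0D against Control 0D, 10 in DDC+Cont against DDC 0D, 23 in EtOH against Control 28D, 19 in DDC+EtOH against DDC+HFD, 0 in DDC+EtOH against EtOH, 0 in Control 28D against Control 0D and 9 for the difference between stages. Under it 8 values reversed, in that a called value changed sign or an uncalled one was called with the other sign (other uncalled values that changed sign are not counted): Cpt1a 0.01, Acadm 0.11 and Ehhadh 0.48 in DDC 0D against Control 0D, Cpt1a -0.0229, Slc25a20 -0.0687, Hadh -0.0914 and Hadha -0.0621 in DDC+Cont against DDC 0D, and Etfb 0.32 in EtOH against Control 28D.

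With only the groups compared in the fit, the count was 6 in Control 28D against Control 0D, 2 in HFD against Control 28D, 9 in EtOH against HFD (3 higher, 6 lower), 1 in DDC+HFD against DDC+Cont, 0 in DDC+EtOH against DDC+HFD, 3 in DDC+EtOH against DDC+Cont and 3 in DDC+EtOH against EtOH. Without the libraries of high pancreatic markers it was 3 (all lower), 6 (all lower), 5 (all higher), 4 (3 higher, 1 lower) and 11 (all lower) in Control 28D against Control 0D, DDC+HFD against DDC+Cont, DDC+EtOH against DDC+HFD, DDC+EtOH against DDC+Cont and DDC+EtOH against EtOH. With no filter on low counts it was 2 in EtOH against HFD, 4 in DDC+EtOH against DDC+Cont and 3 in DDC+EtOH against EtOH. With the clock score it was 1 in DDC+HFD against DDC+Cont and 4 in DDC+EtOH against DDC+Cont (2 higher, 2 lower). With lane as a term it was 2 in Control 28D against Control 0D and 12 in DDC+EtOH against EtOH, and DESeq2 gave 2 in Control 28D against Control 0D. Without TMM the members summed to 7357 CPM in DDC 0D and 14850 CPM in Control 0D livers. Shares over all tested genes are not given for the fits of this paragraph or for those that left out 1 library. Their counts therefore do not show whether the members moved beyond all genes. The causes were not tested.

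With 1 library left out, counts ran from 30 to 31 in DDC 0D against Control 0D, 24 to 28 in DDC+Cont against DDC 0D, 26 to 29 for the difference between stages, 0 to 1 in Control 28D against Control 0D, 5 to 9 in EtOH against Control 28D, 0 to 5 in EtOH against HFD, 1 to 4 in DDC+HFD against DDC+Cont, 4 to 13 in DDC+EtOH against DDC+HFD, 5 to 9 in DDC+EtOH against DDC+Cont and 1 to 12 in DDC+EtOH against EtOH. They stayed at 0 for the ethanol interaction and in DDC+Cont against Control 28D, and at 1 in HFD against Control 28D. No paired analysis was possible because every library's label carries its own number and the groups share none. With 4 to 6 libraries a group, a missed threshold does not show that values are alike, and the lowest members (Pdk4, Pex11a, Vnn1) rested on the fewest reads.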
